A study of Caenorhabditis elegans with 10 samples.

Results

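The genes described here are the C-type lectins of the nematode Caenorhabditis elegans whose mRNAs carried measurable ribosomes while the animals were cooled. They were taken from a table of ribosome footprints, the mRNA fragments that a ribosome protects, by their clec symbol with a number. For each gene the transcript with the highest mean over the conditions was read, and a gene was kept if that mean reached 1 FPKM. FPKM is the number of footprints per kilobase of coding sequence, scaled to the total of its column, so levels can be compared between genes of different length. Of the 239 clec genes listed there, 58 were kept, 98 had 0 counts in every condition and 83 had counts but stayed under the minimum. The same minimum kept 9945 of all 19985 genes.

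The animals were whole wild-type (N2) adults, grown at 20°C to the 1-day-old stage. They were collected at that point (20°C), after 2 hours at 10°C by the protocol (3 hours by another label), or on day 1, day 3 or day 5 at 4°C, which followed the step at 10°C. Each condition had 2 replicate libraries, but the table held 1 pooled value per condition, so the values carry no SD, no n and no p, and each difference is one between pooled libraries with no replicate check. The intervals given are exact 95% Clopper-Pearson intervals of a ratio and cover counting error only. Animals of the 20°C condition were taken at the moment the rest went to 10°C, and the effects of cold and of elapsed time cannot be told apart. For the libraries titled as day 5, the treatment label reads day 3; the title was followed.

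C-type lectins share a protein fold that in its best known members binds sugars with the help of calcium. In worms the family is very large, many of its proteins carry a secretion signal, and many of the genes are used in the intestine, where a number of them respond to bacterial infection. The worm has no adaptive immune system, and secreted lectins are counted, together with lysozymes, saposin-like proteins and antimicrobial peptides, among the effector molecules of its innate defence. For most of the 58 genes no specific role was known well enough to be stated here.

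Depth limits what can be said of most of these genes. Counts could be recovered from the FPKM values, and all positive values came out whole within 0.02 of a count. A recovered count need not be 1 independent read. Between 10°C and 20°C the counts scattered less than independent reads would. Their mean squared z was 0.485 for genes with 2 to 4 counts and 0.683 for 10 to 40, in place of 1. The intervals and calls below take each count as 1 independent read, so their true coverage is not established. The columns held between 486109 counts (10°C) and 3058810 counts (day 5), summed over all transcripts. For a coding sequence of 1000 nt a single count stood for 1.48 FPKM at 20°C and 2.06 FPKM at 10°C, but only for 0.376, 0.335 and 0.327 FPKM on days 1, 3 and 5. The median lectin gene had 4, 3, 9, 7 and 4 counts in the 5 conditions in cooling order, and 14 of the 58 genes had at least 100 counts over all 5. The minimum of 1 FPKM therefore weighs 20°C and 10°C most: clec-157, with 1 count in each condition, passed it mainly through its 2.13 FPKM at 20°C and 2.96 FPKM at 10°C, with 0.541, 0.482 and 0.470 FPKM on days 1, 3 and 5. Of the 58 genes 14 had a mean under 1 FPKM over the 3 conditions at 4°C, against 1 of 58 over 20°C and 10°C. Just inside the minimum lay clec-7 (mean 1.08 FPKM, 8 counts in all) and clec-57 (1.07 FPKM, 6 counts), and just outside it clec-233 (0.991 FPKM, 4 counts) and clec-3 (0.987 FPKM, 13 counts). A difference is called 2-fold below where log2(FPKM + 0.5) moved by at least 1, a scale that understates the change of low genes. It is called clear where, in addition, the gene had at least 10 counts over both conditions and the interval of the ratio left out 1. "Rose" and "fell" are used only of clear differences.

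The samples were whole animals, so fewer cells of a type and less RNA per cell cannot be told apart in any of the levels below. These levels were very uneven. By far the most occupied gene was clec-87, on chromosome I (10184462 to 10185520, minus strand, WBcel235). Its footprints measured 339 FPKM at 20°C (161 counts), 319 at 10°C (109 counts), 589 on day 1 (1099 counts), 718 on day 3 (1502 counts) and 1197 on day 5 (2570 counts). Its 10°C level was 0.941 times that at 20°C (0.731 to 1.21), and it was higher on each later day.

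The next gene by mean level was clec-91, on the same chromosome (9126140 to 9127101). It had 183, 194, 225, 223 and 307 FPKM in cooling order, the highest value again being on day 5. The gene clec-88, on chromosome II (6365722 to 6367002), had 81.9, 101.8, 127, 129 and 116 FPKM. Neither of these 2 genes differed by 2-fold between any of the conditions, and their lowest value was the one at 20°C.

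Other abundant lectins ran the other way. The gene clec-63, on chromosome II (12895638 to 12897446), had 204, 176, 234.7 and 173 FPKM up to day 3, and 68.2 FPKM on day 5 (258 counts). The gene clec-50, on chromosome V (19752399 to 19755368), had 137.9, 117, 94.3, 80.6 and 45.7 FPKM, each value lower than the one before it. Its steps to 10°C, to day 1 and to day 3 were each within counting error. The largest step of clec-63 was the last, after a day 3 level of 0.738 times that on day 1 (0.663 to 0.820).

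The steepest profile was that of clec-1, on chromosome V (5700154 to 5701080). It had 113 FPKM at 20°C (40 counts) and 102 FPKM at 10°C (26 counts), but 3.6, 3.86 and 1.25 FPKM on days 1, 3 and 5 (5, 6 and 2 counts). Its intervals at 4°C, of which the highest upper end was 8.41 FPKM, lay far below those at 20°C and 10°C, of which the lowest lower end was 66.9 FPKM. None of the other 9 genes with the highest means dropped so far at the first step into 4°C.

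The remaining genes among the 10 highest means were clec-209, clec-146, clec-222 and clec-190. The gene clec-222 had 29.3, 27.1, 29.7, 18.1 and 26.3 FPKM in cooling order with a day 3 level of 0.609 times that on day 1 (0.399 to 0.921) and a day 5 level of 0.898 times that at 20°C (interval 0.504 to 1.70). The others are described with the comparisons in which they changed. All further genes had means below these, down to the minimum.

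**Figure D1:**
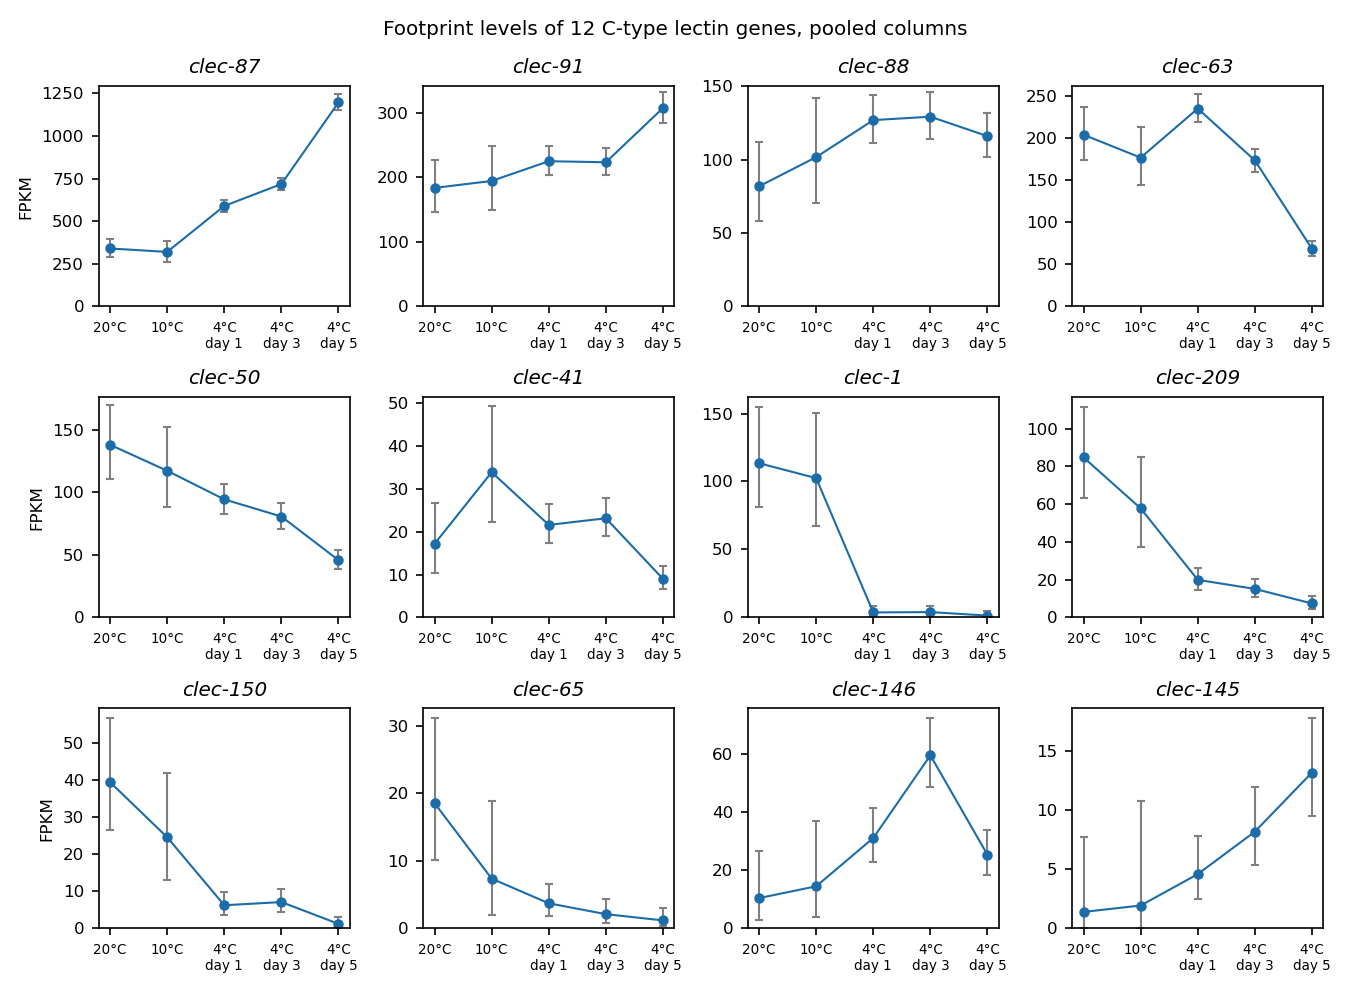
Footprint level (FPKM, each panel with its own axis from 0) of 12 lectin genes in the 5 pooled conditions, in cooling order; bars are exact 95% Poisson intervals of the counts and cover counting error only. clec-87 climbs to 1197 FPKM on day 5, clec-1 drops to 3.6 FPKM on day 1, clec-63 is at 173 FPKM on day 3 and 68.2 FPKM on day 5, and clec-146 peaks at 59.4 FPKM on day 3.

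As a sum the lectins held between 0.209% and 0.256% of the footprints, and a growing part of it came from a few genes. Together the 58 genes took 0.216% of the counts at 20°C (Wilson 95% interval 0.203 to 0.231), 0.209% at 10°C, and 0.233%, 0.231% and 0.256% (0.248 to 0.263) on days 1, 3 and 5, with 1 transcript a gene. The share on day 5 was 1.18 times that at 20°C (interval 1.10 to 1.27) as deposited, but 0.744 times when the columns were scaled by the median of their gene ratios, so the direction of the family's sum depends on the scaling. In counts, not per length, clec-87 alone made up 57.5% of the family on day 5, against 17.5% at 20°C. The 5 most abundant genes (clec-87, clec-91, clec-63, clec-88 and clec-50) made up 86.1% on day 5, against 59.2% at 20°C.

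Those 5 genes were picked by their mean over these same columns, so the remainder is a description. Without them the family's share was lower in the cold under both scalings. The other 53 genes took 0.0884%, 0.0865%, 0.0565%, 0.0482% and 0.0357% of the counts in cooling order. Day 5 stood at 0.403 times the value at 20°C (0.354 to 0.460) as deposited and at 0.254 times under the other scaling. Leaving out the 5 genes with the highest 20°C level instead, with clec-1 in place of clec-88, gave 0.563 times (0.498 to 0.637). Leaving out clec-87 alone gave a day 5 share of 0.608 times that at 20°C (0.559 to 0.662). As deposited, 1 gene thus decides whether the sum is above or below its starting value.

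**Figure D2:**
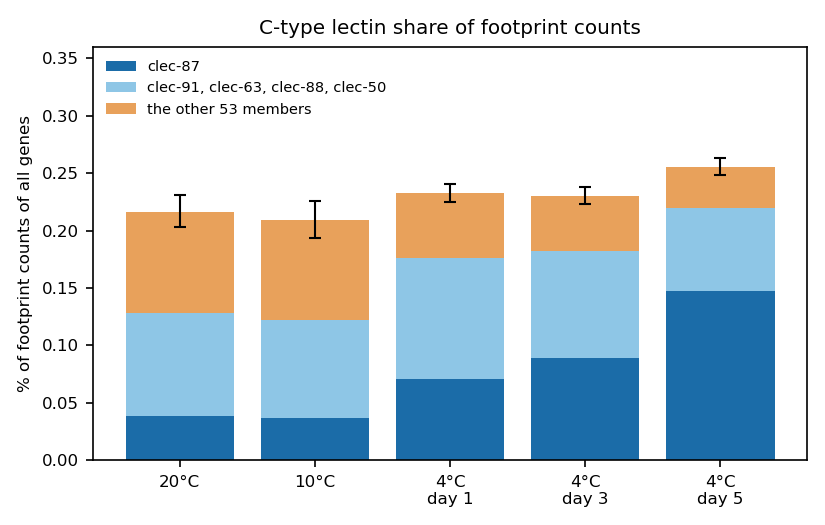
Share of all footprint counts (%, 1 transcript a gene) held by the lectin genes in the 5 pooled conditions, split into clec-87, the 4 next genes and the other 53; error bars are Wilson 95% intervals of the total, counting error only. The total lies between 0.209% and 0.256%, and its excess on day 5 over 20°C turns into a deficit (0.744 times) under scaling by the median of gene ratios, whereas the part outside the 5 highest genes goes down under both scalings.

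At 10°C the depth was too low to show moderate changes of most lectins. There 7 of the 58 genes were at least 2-fold higher and 5 at least 2-fold lower than at 20°C, against 12.2% and 9.1% of all genes kept. All 7 of the higher genes had under 10 counts over both conditions. Among the 26 lectins that reached 10 counts, the clear call found 0 higher and 0 lower, where 0.724% and 0.201% of all genes with such counts were. At background shares this low, 0 of 26 says nothing particular of the lectins. No replicate test was possible, so there is no count at an unadjusted p to set beside these zeros. The largest 2-fold differences upward were those of clec-96 (7.22 FPKM at 10°C from 2 counts, against 0 counts at 20°C) and of clec-133, clec-117 and clec-205 (1 count at 10°C and 0 at 20°C each), with clec-117 and clec-205 tied. Downward they were those of clec-219 (0 counts at 10°C, 1 at 20°C), clec-52 (1 and 7 counts) and clec-65 (4 and 14 counts). The best measured gene close to 2-fold was clec-41, with 33.9 FPKM at 10°C (27 counts) and 17.2 FPKM at 20°C (19 counts), a ratio of 1.98 (1.06 to 3.76). The median log2 difference of the lectins was 0.06, as was that of all genes.

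The first day at 4°C brought the drop of clec-1 and of 4 more lectins. On day 1, 21 of the 58 genes were at least 2-fold lower than at 10°C and 4 at least 2-fold higher, against 14.5% lower and 17.8% higher among all genes. Among the 33 lectins with at least 10 counts over both conditions, 5 (15.2%) were clearly lower and 0 clearly higher, against 4.19% and 6.7% of all genes with such counts. The median log2 difference over all 58 was −0.80, against 0.10 over all genes. Over the 33 better counted lectins it was −0.27, against 0.20, with 17 below 0 and 16 above. The values over all 58 are not free of the minimum. Thinly counted genes passed it more easily through 20°C or 10°C, where a count stands for more FPKM, and such genes read lower at 4°C. Scaling by the median of gene ratios would take a further 0.21 from every log2 difference of this step, and it changed none of the 5 clear calls. Summed markers were at 39.8 FPKM on day 1 and 485 FPKM at 10°C for the hypodermis, of which the collagen gene col-19 alone made up 37.2 and 478 FPKM. They were at 104.8 and 259 FPKM for body wall muscle and at 8.82 and 19.9 FPKM for the pharynx. The part of these tissues in the falls of this step was not tested.

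The largest fall was that of clec-1, with 3.6 FPKM on day 1 and 102 FPKM at 10°C, a 28.4-fold drop (interval 10.7 to 94.8). The gene clec-56, on chromosome V (14474399 to 14476794), fell 5.47-fold (1.26 to 23.8), with 5 counts in each of these columns of very unequal depth. The gene clec-265, on the X chromosome (3031783 to 3033117), fell 4.10-fold (1.53 to 10.6), with 4.66 FPKM on day 1 and 19.1 FPKM at 10°C. Both intervals are wide because few counts stand behind them.

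The gene clec-150, on chromosome III (1002707 to 1006298), had 6.22 FPKM on day 1 (18 counts) and 24.6 FPKM at 10°C (13 counts) and fell 3.95-fold (1.78 to 8.52). The gene clec-209, on chromosome V (2351676 to 2352932), had 19.8 FPKM on day 1 and 57.7 FPKM at 10°C and fell 2.91-fold (1.72 to 4.82). The values of clec-209 cannot be given to it alone, since the gene F56A4.2 on the same chromosome (2459637 to 2460893) has the same coding length, 891 nt, and the same count in every column. Both would be one reading if the reads match them equally.

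Most of the other 2-fold differences of this step rest on a handful of counts. Of the 21 lower genes 15 had under 10 counts over both conditions, and 14 had at most 2 counts at 10°C, where 28 of the 58 lectins were at or under 2 counts. The gene clec-4 is an example, with 0 counts on day 1 and 6.44 FPKM from 4 counts at 10°C. Its 10°C level was 7.29-fold above a floor of 3 counts in the day 1 column, a value that takes the 4 counts as exact. The lower end of its counting interval was 3.61-fold. The 3 largest upward differences were those of clec-137 (6 counts on day 1, 0 at 10°C), clec-219 (2 counts and 0 counts) and clec-146. The gene clec-146, with 31 FPKM on day 1 (47 counts) and 14.4 FPKM at 10°C (4 counts), was at a ratio of 2.15 (0.786 to 8.21), which does not leave out 1. The gene clec-87 was at 1.84 times its 10°C level (1.51 to 2.27), beyond counting error but under 2-fold.

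**Figure D3:**
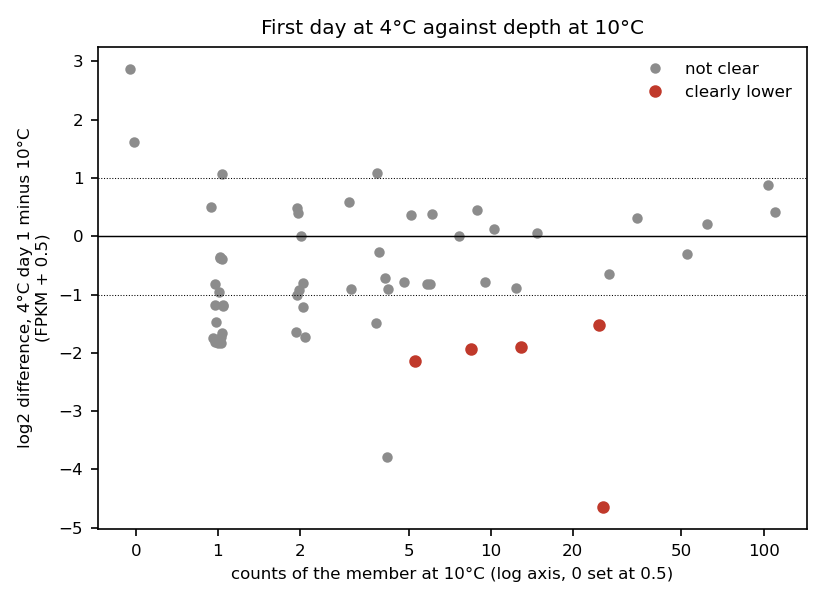
Difference of log2(FPKM + 0.5), day 1 at 4°C minus 10°C, for the 58 lectin genes, against their counts at 10°C (log axis, 0 counts drawn at 0.5, points shifted slightly sideways so that they do not cover each other). Red points are the 5 genes that were clearly lower; clec-1 lies lowest at −4.65, and a column of grey points at 1 or 2 counts makes up most of the remaining values below the line at −1.

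Between day 1 and day 3 there were few clear differences, most of them falls. On day 3, 7 lectins were at least 2-fold lower than on day 1 and 1 was higher, against 6.78% and 5.38% of all genes. With at least 10 counts, 3 of 33 lectins (9.09%) were clearly lower and 1 (3.03%) clearly higher, against 4.1% and 2.52% of all genes. The median log2 difference of the lectins was −0.29, against 0.04 over all genes, and 44 of the 58 lay below 0. The gene clec-266, on the X chromosome (6617393 to 6622915), fell 4.01-fold (1.68 to 11), with 5.36 FPKM on day 3 and 21.5 FPKM on day 1. The gene clec-83, on chromosome IV (2839371 to 2841472), fell 2.46-fold (1.59 to 3.89), with 14.6 FPKM on day 3 and 35.8 FPKM on day 1. The gene clec-223, the longest of the set with 3105 nt of coding sequence, fell 2.19-fold (1.48 to 3.27).

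The one gene that rose between these days was clec-5, on chromosome III (4881888 to 4883606). It had 10.9 FPKM on day 3 (41 counts) and 4.48 FPKM on day 1 (15 counts), a ratio of 2.44 (1.32 to 4.74). Close behind was clec-146, on chromosome II (13590641 to 13593774), with 59.4 FPKM on day 3 (101 counts) and 31 FPKM on day 1 (47 counts). Its ratio of 1.92 (1.34 to 2.77) was beyond counting error but under 2-fold. Further low genes among the largest differences were clec-218 (1 count on day 3, 8 on day 1) and clec-84 (2 and 6 counts), and clec-147 had 3 counts and 1 count.

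From day 3 to day 5 all clear differences were falls, among them that of the abundant clec-63. On day 5, 12 lectins were at least 2-fold lower than on day 3 and 2 higher, against 14.7% and 2.85% of all genes. Of 32 lectins with at least 10 counts, 6 (18.8%) were clearly lower and 0 clearly higher, against 9.67% and 1.39% of all genes with such counts. The median log2 difference of the lectins was −0.56, against −0.08 over all genes.

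The best counted of these falls was that of clec-63, with 68.2 FPKM on day 5 (258 counts) and 173 FPKM on day 3 (638 counts), a 2.54-fold drop (2.19 to 2.94). The gene clec-41, on chromosome V (13134903 to 13138101), fell 2.58-fold (1.81 to 3.73), with 8.98 FPKM on day 5 and 23.1 FPKM on day 3. The gene clec-150 fell a further 5.90-fold (2.02 to 23.5), to 1.2 FPKM on day 5, against 7.08 FPKM on day 3. Also lower were clec-85 (4.10-fold, 1.11 to 22.7, from 3 and 12 counts), clec-5 (2.80-fold, 1.52 to 5.45) and clec-146 (2.36-fold, 1.64 to 3.44).

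For clec-5 and clec-146 day 3 was thus the peak of the series at 4°C. Since the step up to day 3 and the step down from it are read from the same day 3 column, the 2 differences are not independent readings. The abundant genes kept apart in this interval. While clec-63 fell, clec-87 stood at 1.67 times its day 3 level (1.56 to 1.78), clec-91 at 1.38 times (1.2 to 1.6) and clec-190 at 1.93 times (1.31 to 2.86), none of them reaching 2-fold. The largest upward differences by the 2-fold rule, clec-94 (7 counts on day 5, 2 on day 3) and clec-117 (3 counts and 1 count), rest on few counts.

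Over the whole series falls outnumbered rises among the lectins. On day 5, 33 of the 58 genes were at least 2-fold lower than at 20°C and 10 at least 2-fold higher, against 21.5% and 23.6% of all genes kept. Of the 29 lectins with at least 10 counts over both conditions, 14 (48.3%) were clearly lower, against 11% of all genes with such counts, and 3 (10.3%) clearly higher, against 16.7%. The median log2 difference was −1.44 over the 58 genes, against 0.13 over all genes, and −1.04 over the 29 better counted ones, against 0.32. Of the 33 lower genes 18 had under 10 counts over both conditions. The values over all 58 genes are not free of the minimum here either. Thinly counted genes passed it more easily through 20°C or 10°C, where a count stands for more FPKM. Such genes read lower on day 5. The 14 clear falls and 3 clear rises each had at least 10 counts over both conditions. Scaling by the median of gene ratios shifts each log2 difference of this comparison by a further 0.53 downward. Summed intestinal markers were at 1428 FPKM on day 5 and 4450 FPKM at 20°C, of which the yolk protein gene vit-2 made up 450 and 3243 FPKM. Of the 6 intestinal markers 1 was at least 2-fold lower and 0 were higher, with act-5 at 1.56 times its 20°C level (1.33 to 1.83). Summed hypodermal markers were at 5.13 and 456 FPKM, of which col-19 alone made up 4.13 and 453 FPKM. Those of body wall muscle were at 66.7 and 244 FPKM. The part of these tissues in the falls was not tested.

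The deepest falls on day 5 included 3 genes with at least 39 FPKM at 20°C. The gene clec-1 was at 1.25 FPKM on day 5 and 113 FPKM at 20°C, 90.6-fold lower (23.5 to 773), and clec-150 was at 1.2 and 39.4 FPKM, 32.8-fold lower (11.5 to 129). The gene clec-209 was 11.5-fold lower (6.76 to 20.4) with its look-alike F56A4.2. The gene clec-52, with 1 count on day 5 and 7 at 20°C, was 31.7-fold lower (4.07 to 1428) but too thinly counted for a clear call.

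Then came a group that fell between 10-fold and 16-fold from levels between 9.99 and 33.8 FPKM at 20°C. These were clec-65 (15.8-fold, 4.98 to 66.1), clec-265 (12.5-fold, 3.69 to 53.6), clec-66 (12.1-fold, 2.90 to 70.7), clec-266 (11.3-fold, 3.26 to 49.4) and clec-85 (10.6-fold, 2.41 to 63.3). Each of the 5 had 3 or 4 counts on day 5, so their order among themselves is not resolved. Smaller clear falls were those of clec-49 (6.27-fold, 2.90 to 13.9), clec-186 (3.88-fold, 1.08 to 13.5), clec-223 (3.83-fold, 2.07 to 7.03), clec-50 (3.02-fold, 2.29 to 3.97), clec-63 (2.98-fold, 2.44 to 3.63) and clec-48 (2.44-fold, 1.18 to 4.84).

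Rises were few. The gene clec-87 rose 3.53-fold (3.01 to 4.16), with 1197 FPKM on day 5 and 339 FPKM at 20°C. The gene clec-145, on chromosome II (13588776 to 13590561), had 13.2 FPKM on day 5 (43 counts) and 1.39 FPKM from 1 count at 20°C. Its ratio of 9.50 has an interval from 1.62 to 384, but its 3 values at 4°C, 4.59, 8.19 and 13.2 FPKM from 13, 26 and 43 counts, were each above the one before. The gene clec-190, on chromosome IV (15124931 to 15126121), had 38.7 FPKM on day 5 and 19 FPKM at 20°C, a ratio of 2.04 (1.02 to 4.61). Under the other scaling this ratio was 1.41, and the call was lost.

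Genes with at least 10 counts that showed no clear difference between day 5 and 20°C numbered 12. Among them clec-264 (11.3 FPKM on day 5, 3.82 FPKM at 20°C, ratio 2.94, 0.938 to 14.9) and clec-146 (25.2 and 10.4 FPKM, ratio 2.43, 0.884 to 9.31) were past 2-fold with intervals that include 1. The gene clec-97 (8.47 and 17.9 FPKM) was 2.11-fold lower with an interval from 0.729 to 5.51. For clec-91 and clec-88 the ratios were 1.67 (1.33 to 2.13) and 1.4 (1.0 to 2.05), and both intervals include a 2-fold difference. For clec-47, clec-5 and clec-160 the ratios lay between 0.828 and 0.883, with intervals that run past 2-fold on both sides, and a change of that size was not detectable at this depth.

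**Figure D4:**
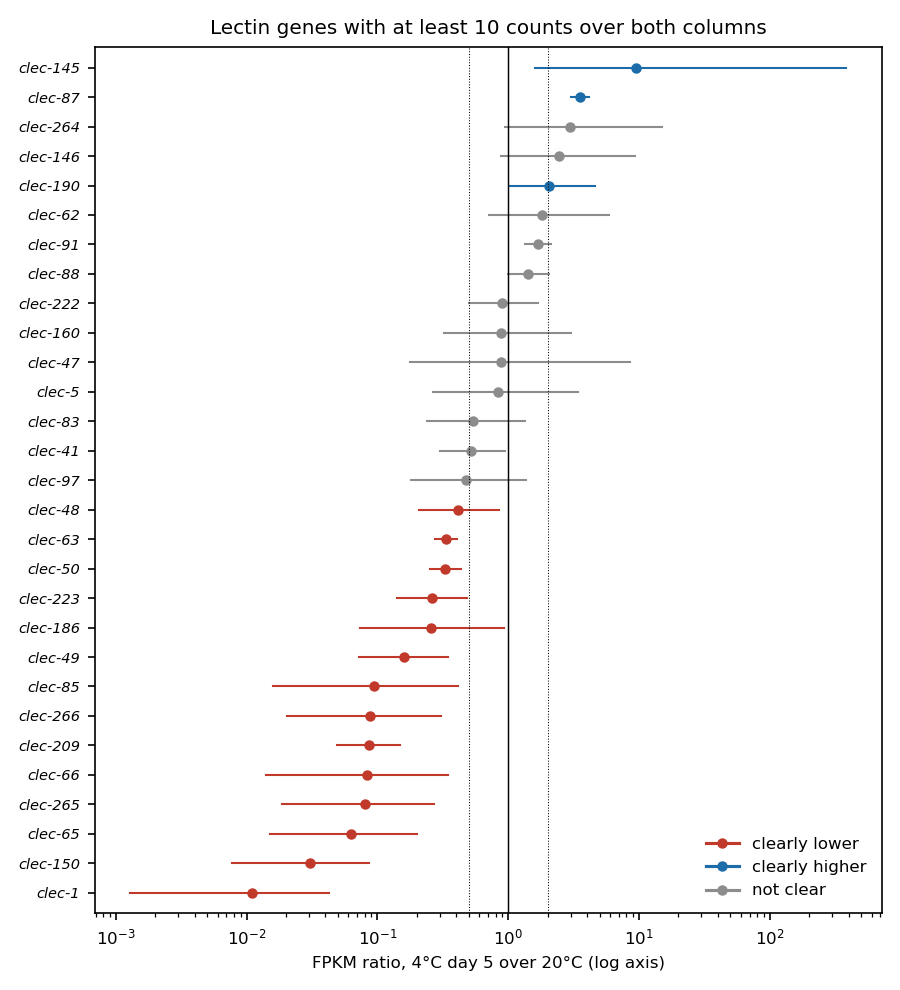
Ratio of footprint levels, day 5 at 4°C over 20°C (log axis), for the 29 lectin genes that reached 10 counts over the 2 conditions; bars are exact 95% Clopper-Pearson intervals, dotted lines mark 2-fold. The 14 red genes were clearly lower, down to clec-1 at 0.0110, and the 3 blue ones clearly higher; scaling by the median of gene ratios would move every point 0.53 log2 units to the left and clec-190 out of the higher group.

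The 3 sampling days at 4°C were also set against 20°C one by one. These comparisons share the 20°C column, so their counts describe profiles and are not separate readings. On day 1, 21 lectins were 2-fold lower and 9 higher, on day 3 27 lower and 11 higher, and on day 5 33 lower and 10 higher. Lower on all 3 days were 21 of the 58 (36.2%), against 8.86% of all genes, and higher on all 3 days were 7 (12.1%), against 13.6%. Of these 21 genes 14 were thinly counted, and some (clec-99, clec-157) had 1 count in each condition, so that a count being worth less FPKM in the deeper 4°C columns sets them lower there. By the clear call, with 29 lectins counted well enough on all 3 days, 6 (20.7%) were lower on each day, against 4.39% of all genes, and 0 were higher on each day, against 6.29%. The 6 were clec-1, clec-209, clec-150, clec-49, clec-265 and clec-65. Under 2-fold on all 3 days were 12 of 58 (20.7%), against 44.3% of all genes.

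Of the 7 genes higher on all 3 days by the 2-fold rule, only clec-146 and clec-145 had a count at 20°C. The gene clec-146 was 2.99 times its 20°C level on day 1 (1.09 to 11.4) and 5.72 times on day 3 (2.17 to 21.4), both clear as deposited. The day 1 interval begins close to 1. Neither call was checked under the other scaling, which takes 0.25 (day 1) and 0.38 (day 3) from the log2 difference. The other 5, clec-96, clec-117, clec-133, clec-137 and clec-224, were at 0 counts at 20°C, the second shallowest column. The best counted of them, clec-137, had 0, 0, 6, 4 and 7 counts in cooling order. Set against a floor of 3 counts at 20°C its day 5 level was 0.515 times that floor, so a difference from 20°C was not detectable at this depth.

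The median coding length was 775.5 nt over the 58 genes, from 144 nt (clec-196) to 3105 nt (clec-223). It was 927 nt in the 21 genes lower on all 3 days, 570 nt in the 7 higher ones, 705 nt in the 12 that stayed under 2-fold and 966 nt in the other 18; these medians were not tested. With 1 value per condition the levels of short genes are the least certain, clec-196 having at most 3 counts in any column.

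Part of the lectins lay next to each other on the chromosomes. Of the 36 clec genes of the table on chromosome I 6 were kept, of 48 on II 13, of 14 on III 5, of 53 on IV 14, of 85 on V 18, and of 3 on X 2. Taking kept genes with gaps of at most 20000 bases as neighbours gave 10 runs with 25 of the 58 genes; the same share was not computed for all genes. Only 1 of the 58 genes, clec-97, overlapped the coding sequence of another gene, clec-98 on the other strand, so that its reads could be split if the counting did not use strand.

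Neighbours did not always move alike. On chromosome II the run of clec-62, clec-63, clec-65 and clec-66 (12893062 to 12906644) held genes with unlike profiles. On day 5, clec-65 and clec-66 were 15.8-fold and 12.1-fold lower than at 20°C, clec-63 was 2.98-fold lower, and clec-62 had 11.5 FPKM on day 5 and 6.33 FPKM at 20°C (ratio 1.81, 0.716 to 5.87). The intervals of clec-62 and clec-63 did not overlap, although the genes lie next to each other on opposite strands.

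Elsewhere on the same chromosome, clec-145 and clec-146 were the 2 genes with a count at 20°C that were higher on all 3 days. On chromosome V the adjacent clec-222 and clec-223 (11273148 to 11278161) had day 5 ratios of 0.898 (0.504 to 1.70) and 0.261 (0.142 to 0.483). In the run of clec-83, clec-84 and clec-85 on chromosome IV all 3 were lower on day 5 than at 20°C, clec-85 clearly so, clec-83 with a ratio of 0.540 (0.239 to 1.33) and clec-84 with 4 counts in each condition, too few for a call. The pair clec-49 and clec-50 on chromosome V, of equal coding length (966 nt each), fell 6.27-fold and 3.02-fold, with overlapping intervals.

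**Figure D5:**
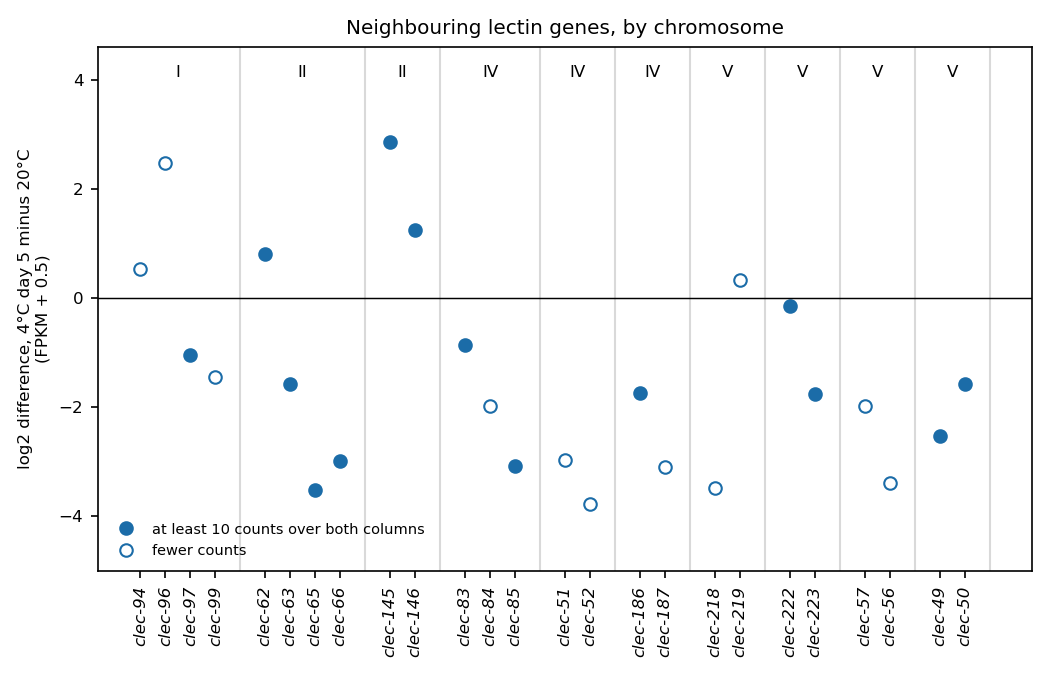
Difference of log2(FPKM + 0.5), day 5 at 4°C minus 20°C, for the 25 lectin genes in the 10 runs of neighbours, grouped by run with the chromosome above; filled points have at least 10 counts over both conditions, open points fewer. In the first run on chromosome II clec-62 lies above 0 and clec-63, clec-65 and clec-66 below, whereas clec-145 and clec-146 both lie above 0.

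A few members have a role known from infection work in worms. The gene clec-49, needed for normal survival on the bacterium Serratia marcescens, had 27.6, 19.2, 10.9, 7.99 and 4.4 FPKM in cooling order and was clearly lower than at 20°C on each day at 4°C. The gene clec-85, a target of the PMK-1 p38 kinase pathway, had 19, 15.1, 8.96, 7.37 and 1.80 FPKM and was clearly lower on day 5. The gene clec-67, induced by Pseudomonas aeruginosa through the same pathway, had 2.11, 7.33, 4.02, 2.39 and 1.40 FPKM from 2, 5, 15, 10 and 6 counts. It had too few counts for a call between day 5 and 20°C. Where its counts sufficed it showed no clear difference, with a day 1 level of 0.549 times that at 10°C (0.190 to 1.93). The gene clec-121, which is on a list of the study, stayed under the minimum with 0, 0, 3, 1 and 2 counts.

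Other groups of defence genes were read in the same way, from lists made with earlier results of these data known. Lysozymes, which cut bacterial cell walls, and thaumatins were mostly on the lower side on day 5, where 11% of all genes were clearly lower than at 20°C and 16.7% clearly higher. Of the 9 lysozymes with enough counts for a clear call 5 were lower and 0 higher, with a median log2 difference of −1.48 over the 11 measured, and both measured thaumatin genes were clearly lower. The lysozyme lys-4 had 27.9 FPKM on day 5 and 223 FPKM at 20°C and fell 7.99-fold (5.68 to 11.3), and lys-1 fell 2.81-fold (2.13 to 3.69). The thaumatin-like gene thn-2 fell 3.09-fold (2.17 to 4.36), and thn-1 fell 4.04-fold (2.45 to 6.64).

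Saposin-like proteins, which act on membranes, and the antimicrobial peptides were mixed. Of the 12 saposin-like genes with enough counts 2 were clearly higher on day 5 than at 20°C and 3 clearly lower, and of the 14 peptide genes with enough counts (48 were measured) 2 were clearly higher and 3 clearly lower. Under the other scaling 0 of the 2 saposin-like and 1 of the 2 peptide rises remained. The abundant spp-5 had 552 FPKM on day 5 and 565 FPKM at 20°C (ratio 0.978, 0.8 to 1.2), and spp-14 had 706 and 788 FPKM. The peptide gene nlp-27 rose 3.45-fold (2.19 to 5.72), and nlp-33 fell 7.36-fold (2.83 to 20.5).

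Galectins, another class of sugar-binding proteins, moved both ways. Of the 9 with enough counts 3 were clearly higher on day 1 than at 10°C (2 under the other scaling) and 0 clearly lower, against 6.7% and 4.19% of all genes. On day 3 1 of 10 was clearly higher than on day 1 and 2 clearly lower, and on day 5 3 were clearly higher than at 20°C and 2 clearly lower. The gene lec-6 had 1508 FPKM on day 1 and 420 FPKM at 10°C, a 3.59-fold rise (2.91 to 4.49). The other most abundant one, lec-1, stood at 1.01 times its 10°C value (0.883 to 1.15).

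Regulators that act above such effector genes were read as well, from a list also made with earlier results of these data known. Its shares beside those of all genes describe the list and cannot speak for such regulators at large. Of 21 regulators 5 were clearly higher on day 1 than at 10°C and 0 clearly lower, against 6.7% and 4.19% of all genes, and on day 5 7 of the 17 with enough counts were clearly higher than at 20°C and 0 clearly lower, against 16.7% and 11%. The zinc finger factor gene pqm-1 rose 15.6-fold (6.03 to 57.6) on day 1, with 144 FPKM on day 1 and 9.27 FPKM at 10°C. Also higher on day 1 were cebp-1 (4.44-fold, 2.11 to 11.2) and the FOXO gene daf-16 (3.92-fold, 1.86 to 9.92). So were the heat shock factor gene hsf-1 (2.68-fold, 1.18 to 7.51, from 6 counts at 10°C) and the TFEB homologue hlh-30 (2.03-fold, 1.15 to 3.90). The study gave cebp-1 as a gene with more footprints in the cold and hsf-1 as one without, and saw no rise of tagged HSF-1 protein. Under the other scaling hlh-30 lost its call (1.76). These 5 were clearly higher on day 5 than at 20°C as well, of which daf-16 (1.65) and hsf-1 (1.79) lost the call under the other scaling, together with the bZIP factor gene zip-2 (3.38-fold, 2.33 to 5.07) and tir-1 (10.6-fold, 1.81 to 427), whose product is an adaptor above the p38 kinase cascade.

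Some of the regulators fell late. From day 3 to day 5, 7 of the 21 fell and 0 rose by the clear call, against 9.67% and 1.39% of all genes. Among them were the intestinal GATA factor gene elt-2 (3.90-fold, 2.18 to 7.41), which had risen 2.54-fold (1.5 to 4.46) between day 1 and day 3, the p38 kinase gene pmk-1 (2.20-fold, 1.13 to 4.49), its upstream kinase gene nsy-1 (3.39-fold) and the TGF-beta pathway genes sma-4 (3.72-fold) and sma-6 (2.69-fold). The remaining ones were sta-2 (7.18-fold, 1.65 to 65.1) and fshr-1 (7.69-fold, 1.79 to 69.3), each with 2 counts on day 5. For elt-2 the rise and the fall are read from the same day 3 column and are not independent readings. Its day 5 level was 1.66 times that at 20°C (0.385 to 14.9), which is not a clear difference. At the first step to 10°C, only atf-7 of this list was clearly higher (3.13-fold, 1.29 to 8.31).

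Markers of several tissues changed over the series, some downward and some upward. The summed level of 4 hypodermal markers was 456, 485, 39.8, 12.4 and 5.13 FPKM in cooling order, most of it from the collagen gene col-19. That of 3 body wall muscle markers was 244, 259, 104.8, 88.8 and 66.7 FPKM. The 6 intestinal markers summed to 4450, 3963, 4616, 3585 and 1428 FPKM. On day 5 vit-2 was 7.20-fold lower than at 20°C, while asp-1 (0.621 times) and act-5 (1.56 times) stayed under 2-fold. The 4 germ line markers summed to 407, 467, 446, 474 and 660 FPKM, and 4 neuronal markers to 108, 186, 220, 223 and 223 FPKM. Pharyngeal (11.2, 19.9, 8.82, 18.9 and 5.71 FPKM), sperm (26.4, 39.7, 32.0, 23.3 and 62.9 FPKM) and coelomocyte markers (at most 3.14 FPKM) were low, but some changed clearly. The pharyngeal genes myo-2 and myo-1 rose 2.57-fold and 2.38-fold from day 1 to day 3. They fell 3.25-fold and 3.44-fold from day 3 to day 5, both steps being read from the same day 3 column. The sperm genes msp-3 and msp-142 rose 2.56-fold and 3.41-fold from day 3 to day 5. No marker of these lists was at 0 in every condition. The part of tissue makeup in the lectin values was not tested.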

How the data were processed

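Whole-animal ribosome profiling of 10 libraries in 5 conditions was read from 1 table of deposited FPKM values. The authors sequenced gel-selected footprints and, per the labels, used fastp 0.23.4, STAR 2.7.11b and the WBcel235 genome. They pooled both replicates of a condition in 1 column; for the way of pooling, the annotation release and the strand rule: not given in the sources used here. A further column (1) matched no sample and was not used.

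Counts were recovered as FPKM times coding length (Ensembl release 115, with the 3 nt of the stop codon) over the column's step. For genes with 2 to 4 counts the squared z of 10°C against 20°C averaged 0.485, and for 10 to 40 counts 0.683, where independent reads would give 1; intervals leave out replicate spread. Per gene the transcript with the highest mean was used; 11 members had more than 1. The pseudocount was 0.5 FPKM. Named were clec-1, the 10 highest members, clear calls, the 3 largest 2-fold differences each way, genes beside the minimum, members with known roles, and of related lists the 2 highest genes and the clear regulators. Members and lists were chosen with earlier results of these data known. The scripts were tested on simulated data. Alternatives were other pseudocounts, filters, transcripts, scalings and the clear call. The tools were pandas 2.3.3, Matplotlib 3.10.9, SciPy 1.17.1 and NumPy 2.4.6 under Python 3.11.15.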

Additional observations from a re-analysis of the deposited data

How the results depend on the processing

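Counts of members at 2-fold changed with the settings more than the well counted ratios did. With a pseudocount of 0.1 FPKM 3 members were higher on day 3 than on day 1 and 20 lower on day 5 than on day 3; with 1 FPKM 4 were lower on day 3 than on day 1, 1 higher and 7 lower on day 5 than on day 3, and 4 higher than 20°C on all 3 days. Without the filter, over 141 genes, 20 were higher and 21 lower at 10°C, 28 and 35 on day 1 against 10°C, 7 and 20 on day 3, 5 higher on day 5 against day 3, and 23 and 52 on day 5 against 20°C. With a minimum of 5 FPKM 0 were higher and 2 lower at 10°C, 2 and 5 on day 1, 0 higher on day 5 against day 3, 5 and 19 on day 5 against 20°C, and 2 higher and 10 lower on all 3 days. Scaling by the median of ratios left 2 higher on day 1, 1 on day 5 against day 3, 6 on day 5 against 20°C and 4 on all 3 days. The clear call left 0 and 0 at 10°C, 0 and 5 on day 1, 3 lower on day 3, 0 and 6 on day 5 against day 3, 3 and 14 on day 5 against 20°C, and 0 and 6 on all 3 days; fewer genes can pass it. Without the 10 genes with the most counts the family share was 0.282, 0.265, 0.291, 0.277 and 0.289% in cooling order, and with the transcript with the most counts it was 0.248% on day 5. Beyond the constructions named, the cause of these shifts was not tested. The ratio of the family's whole share reversed under that scaling, to 0.916 on day 1 against 10°C and 0.744 on day 5 against 20°C, and was 0.915 on day 3 against day 1. Of the lectin ratios in the 5 main comparisons only clec-190 lost its clear call. Of the named regulators hlh-30 on day 1 (1.76) and daf-16 (1.65) and hsf-1 (1.79) on day 5 did. This check of the regulators and of the whole share was chosen after seeing the data. The clear calls of day 1 and day 3 against 20°C were not checked in this way. No paired analysis was possible because each condition is 1 pooled column, which also leaves no replicate to leave out. Leaving out members with shared sequence windows, and the promoter and protein features, were not run.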

Other observations

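The 83 clec genes that had counts but stayed under the minimum add little to the family. Together they held 28, 21, 97, 79 and 86 counts in cooling order, and their share of all counts on day 5 was 0.745 times that at 20°C (0.482 to 1.19). The best counted was clec-78, with 3, 1, 6, 10 and 7 counts. The gene clec-134 had 0, 0, 4, 2 and 5 counts and clec-3 had 0, 1, 1, 5 and 6, but at the depth of the 20°C and 10°C columns neither difference was detectable. These 3 genes were chosen after their values were seen.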
